A study of Mus musculus with 4 samples.

Results

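Type I interferon-stimulated genes were followed across the immune cells of the mouse nose. The members are 39 genes listed by symbol, from the signalling factor Irf7 to the antiviral enzyme Rsad2, and each symbol matched 1 gene of the 27998 genes listed in every library. The rule is the list of symbols and uses no level or ratio. They comprise 5 signalling factors, 5 sensors of RNA or DNA, 3 IFIT genes, 4 OAS genes, 3 genes of the ISG15 system, 8 other antiviral effectors, 5 membrane or secreted proteins, 3 genes of the PARP and DTX3L group and 3 others.

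The cells were CD45+ cells, that is leukocytes, from the nasal mucosa of C57BL/6 mice aged 8 weeks, profiled by droplet single-cell RNA sequencing from the 3′ end with unique molecular identifiers (UMIs). Each of the 4 groups was 1 library: the labels name Vehicle, its counterpart with the allergen ovalbumin (Vehicle-OVA), Ribavirin, and its counterpart with ovalbumin (Ribavirin-OVA), and say no more of the treatments. Where 4 values follow each other, they are always in this order of libraries. In the study's model, allergic rhinitis is brought about by sensitizing mice to ovalbumin (OVA) with alum and challenging them through the nose. Ribavirin is a nucleoside antiviral drug that the series title names as a spray, its dose and schedule are not given in the sources used here, and the labels name no genetic change in the mice. The number of mice behind a library is not given in the sources used here, so each comparison below sets 1 library beside another, no difference could be held against the spread between mice, and no p-value is given. Intervals are 95% intervals for counting error only, and they do not cover differences between mice, between preparations or from amplification.

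Cells were placed in 8 classes by gates of 6 marker genes, none of which is a member. After removal of poor cells, 25727, 17498, 20278 and 8817 cells remained in the 4 libraries, and 76.6% to 81.9% of them fell in a gate. The smallest gate was the cDC gate of Vehicle-OVA with 56 cells and the largest the neutrophil gate of that library with 11724 cells, which made up 67% of its cells against 31.1% to 37.9% in the other libraries. All 6 markers of each gate were detected in its own cells in every library. The B cell gate also held RNA of plasma cell markers (8238 to 85201 CPM, counts scaled by the total of the gate), so it is not a pure B cell class. Other gates held these markers too, up to 9307 CPM in the neutrophil gate of Vehicle. They were lower in Vehicle-OVA than in Vehicle in every gate, for example 297 against 6293 CPM in the pDC gate. The part of plasma cell RNA in the ratios was not tested. Libraries shared 57 to 174 cell barcodes, at most 0.909% of a library.

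Type I interferons are released when cells sense viral or other nucleic acids, and they signal through the receptor chains Ifnar1 and Ifnar2 to the kinases Jak1 and Tyk2. These phosphorylate Stat2, which binds Irf9 and enters the nucleus as part of the complex ISGF3. ISGF3 binds a short promoter element with repeated GAAA boxes, the interferon-stimulated response element, and switches on genes that sense, bind or destroy viral RNA, block viral entry and release, or restrain the response again. Plasmacytoid dendritic cells (pDC) are known as strong producers of type I interferon, whereas most nucleated cells can respond to it.

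To show the element that these genes are known for, promoters from RefSeq on GRCm38.p6 were searched on both strands for 2 GAAA boxes with 2 bases between them (GAAANNGAAA, which reads TTTCNNTTTC on the other strand), from 250 bases before to 50 bases after the start site. A promoter sequence was at hand for 30 members, and 13 of them (43.3%) held the motif, against 708 of 17999 genes (3.93%). The motif was found for Ifi205, Ifih1, Ddx58, Isg15, Oas3, Oas1a, Trim30a, Ifitm3, Bst2, Stat2, Rsad2, Ifit3 and Ifit1. The windows of 5 members whose levels carry the results are printed 5′ to 3′ on the strand of the gene, with a match of the motif in capitals and 30 bases on each side. Further matches in the Isg15, Ifit1 and Bst2 windows are left in small letters. A match describes letters and not binding. The Isg15 window is chr4:156200851-156200920 (minus strand, motif from base -72 relative to the start site), the Rsad2 window chr12:26456533-26456602 (minus strand, -120), the Ifit1 window chr19:34640774-34640843 (plus strand, -85), the Oas3 window chr5:120777695-120777764 (minus strand, -75) and the Bst2 window chr8:71537557-71537626 (minus strand, -124).
Isg15: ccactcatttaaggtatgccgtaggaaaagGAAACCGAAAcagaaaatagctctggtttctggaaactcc
Rsad2: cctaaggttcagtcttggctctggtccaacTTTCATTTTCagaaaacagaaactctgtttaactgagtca
Ifit1: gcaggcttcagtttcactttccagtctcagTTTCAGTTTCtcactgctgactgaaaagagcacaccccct
Oas3: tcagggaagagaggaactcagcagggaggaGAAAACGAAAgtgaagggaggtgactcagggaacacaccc
Bst2: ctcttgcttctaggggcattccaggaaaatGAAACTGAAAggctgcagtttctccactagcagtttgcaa

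First, the summed level of the members was compared between gates within each library. Levels are UMIs scaled by all UMIs of the gate (CPM), and since each molecule is counted once from its 3′ end they were not divided by transcript length. The monocyte gate held the highest sum in all 4 libraries, with 12262, 9373, 12859 and 7846 CPM. The pDC gate followed in all 4, at 7903, 7563, 7885 and 6509 CPM. The NK gate held the lowest sum in all 4, at 2214, 2640, 2384 and 2025 CPM. Neutrophil and macrophage gates lay close together in libraries without OVA, with 7079 and 6682 CPM under vehicle and 6091 and 6352 CPM under ribavirin, so their order differed between these libraries. Neighbours in the order differed beyond counting error except the T cell and B cell gates of Vehicle (ratio 1.01, 0.993 to 1.02) and the neutrophil and cDC gates of Ribavirin (1.01, 0.999 to 1.03).

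A few members made up much of each sum. The 3 most abundant took from 31.6% of it in the neutrophil gate of Vehicle-OVA to 81.9% in the pDC gate of Vehicle, where Bst2 held 39.5% and Ly6e 34.1%. In the monocyte gate of Vehicle they were Ifitm3 (32.6%), Ifi27l2a (20.2%) and Ly6e (14.6%). In the neutrophil gate of Vehicle-OVA the most abundant member was Rsad2 (13%), which led in no other gate or library.

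**Figure D1:**
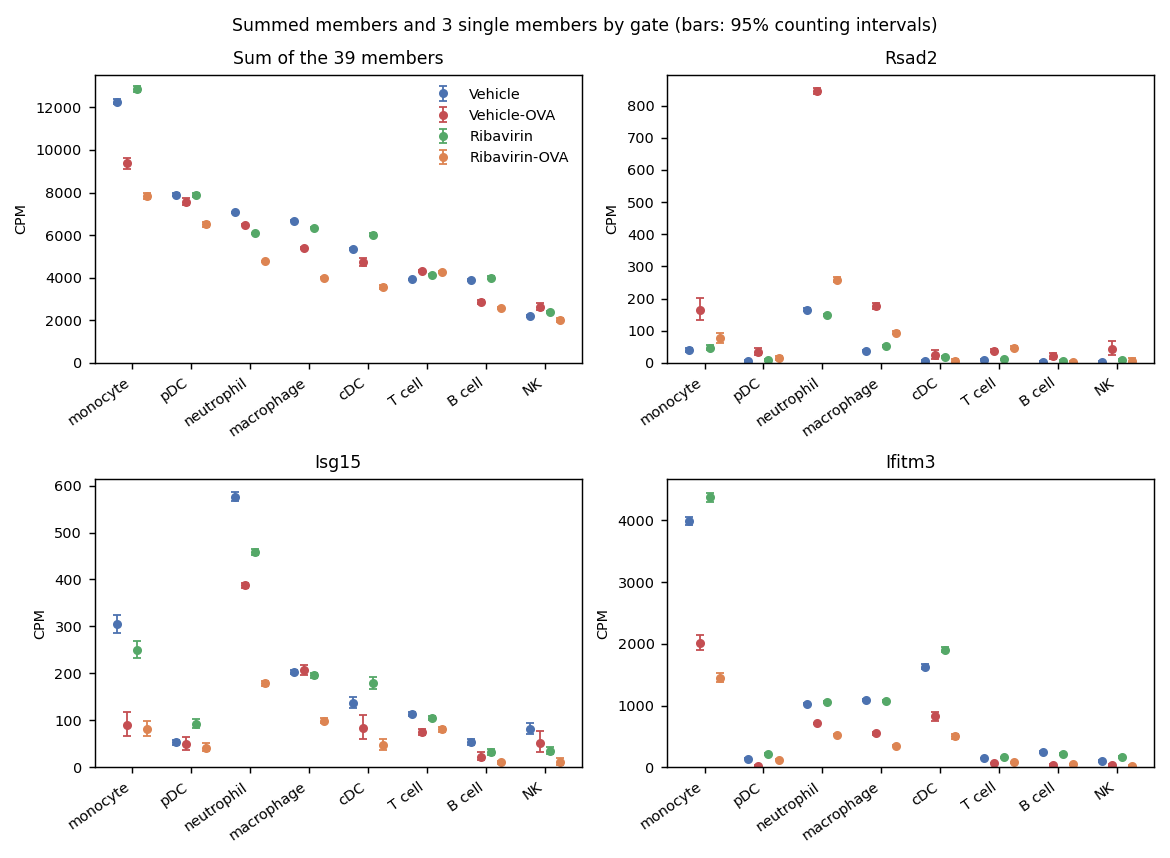
Summed members and 3 single members (Rsad2, Isg15 and Ifitm3) in CPM on linear axes, by gate on the horizontal axis and library by colour, with bars for 95% counting intervals. The monocyte gate is highest for the sum and for Ifitm3 in all 4 libraries, and the neutrophil gate of Vehicle-OVA stands at 845.6 CPM of Rsad2 against 148.6 to 258.3 CPM in the other neutrophil gates.

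Members differed in the gate where they were highest. The share of all genes that were highest in each gate was not counted, so the counts here describe the members only. By the mean CPM over the 4 libraries, 13 members were highest in the monocyte gate (8 of them in every library), 11 in the neutrophil gate (7 in every library), 4 in the pDC gate (4), 4 in the T cell gate (0), 3 in the cDC gate (2), 3 in the macrophage gate (1) and 1, Isg20, in the B cell gate (0).

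The membrane and secreted proteins held the members with the highest CPM. Bst2 encodes tetherin, which holds budding virus at the cell surface and is also used as a surface marker of mouse pDC. Its level in the pDC gate was 3125, 2320, 2880 and 2041 CPM. This was 3.97 to 9.06 times the next gate of the same library. Ly6e, a lipid-anchored surface protein, was also highest there, with 2692, 2568, 2616 and 2183 CPM, and it stood above 490 CPM in every gate of every library. Ifitm3, which hinders fusion of virus with the endosome, was highest in the monocyte gate at 3994, 2016, 4375 and 1453 CPM. The cDC gate came next for Ifitm3 in 3 libraries, at 1631, 823 and 1901 CPM, and had 504 CPM in Ribavirin-OVA, where the neutrophil gate had 527 CPM. Lgals3bp, a secreted glycoprotein that binds galectins, was highest in the macrophage gate of all 4 libraries at 356, 249, 279 and 200.2 CPM. Rtp4, a receptor transporter protein, was highest in the neutrophil gate at 213, 190.2, 152 and 102 CPM.

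The antiviral effectors lay mainly in myeloid cells. Samhd1, which breaks down the nucleotides that retroviruses need, was highest in the monocyte gate at 1016, 1678, 1168 and 1189 CPM. Rsad2 encodes viperin, an enzyme that makes a chain-terminating nucleotide, and it lies at chr12:26442746-26456452 (GRCm38) beside Cmpk2, a nucleotide kinase at chr12:26469204-26479837. Rsad2 in the neutrophil gate had 165, 846, 149 and 258 CPM, and the next gate of each library had 2.73 to 4.79 times less. Trim30a, a ubiquitin ligase, was highest in the neutrophil gate in Vehicle and Vehicle-OVA (336 and 450.5 CPM) and in the pDC gate in Ribavirin and Ribavirin-OVA (247 and 340 CPM). Ifi44 was highest in the pDC gate at 28.9, 72.1, 35.6 and 55 CPM. The exonuclease gene Isg20 had 215, 73.8, 155 and 115 CPM in the B cell gate and 166, 153, 133 and 75 CPM in the neutrophil gate. Mx1 was low, at most 39.9 CPM in any gate, and C57BL/6 mice are known to carry an Mx1 allele that makes no working protein.

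Of the IFIT, OAS and ISG15 genes, Ifit1, Ifit3, Oasl1, Oasl2, Oas3 and Isg15 had their highest mean in the neutrophil gate, Ifit2 in the macrophage gate, Oas1a in the monocyte gate, Usp18 in the cDC gate and Herc6 in the T cell gate. IFIT proteins bind foreign RNA ends, and their summed level in the neutrophil gate was 239, 412, 191 and 225 CPM, against 4.25 to 14.5 CPM in the B cell gate. Ifit1, at chr19:34640871-34650009, had 144, 313, 122 and 152 CPM in the neutrophil gate. OAS enzymes make short oligoadenylates that activate RNase L, and the 4 members of this group, with the OAS-like Oasl1 and Oasl2, summed to 380.1, 649, 283 and 378 CPM in the neutrophil gate and to 10.9, 29.2, 22.7 and 13.9 CPM in the B cell gate. Isg15, a ubiquitin-like protein tag encoded at chr4:156199424-156200818, was highest in the neutrophil gate at 577, 387, 459 and 178 CPM. Usp18, which removes that tag and dampens receptor signalling, was highest in the cDC gate in 3 of 4 libraries, yet its range over gates and libraries ended at 53.2 CPM. Ifit3 has a near-identical neighbouring copy in the mouse genome, so its counts are uncertain.

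Of the signalling factors, Irf7, which drives interferon-alpha genes, had 119, 166, 127 and 165 CPM in the pDC gate and 148, 135, 174 and 144 CPM in the monocyte gate. Stat2 was highest in the pDC gate of all 4 libraries at 82.2, 196, 83.7 and 165 CPM. Of the sensors, Ifi205, an AIM2-like receptor gene with close paralogs, was set apart by the cDC gate at 320, 394, 332 and 271 CPM, which was 1.83 to 3.79 times the next gate. Zbp1, which senses Z-form nucleic acids, was highest in the monocyte gate at 278, 170, 222 and 123 CPM, and the B cell gate followed with 168, 104, 154 and 118 CPM, which in Ribavirin-OVA was within counting error of the monocyte gate (ratio 1.04, 0.868 to 1.25). The RNA sensors Ifih1 (MDA5), Ddx58 (RIG-I) and Dhx58 (LGP2) stayed at or under 109.5 CPM in every gate.

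**Figure D2:**
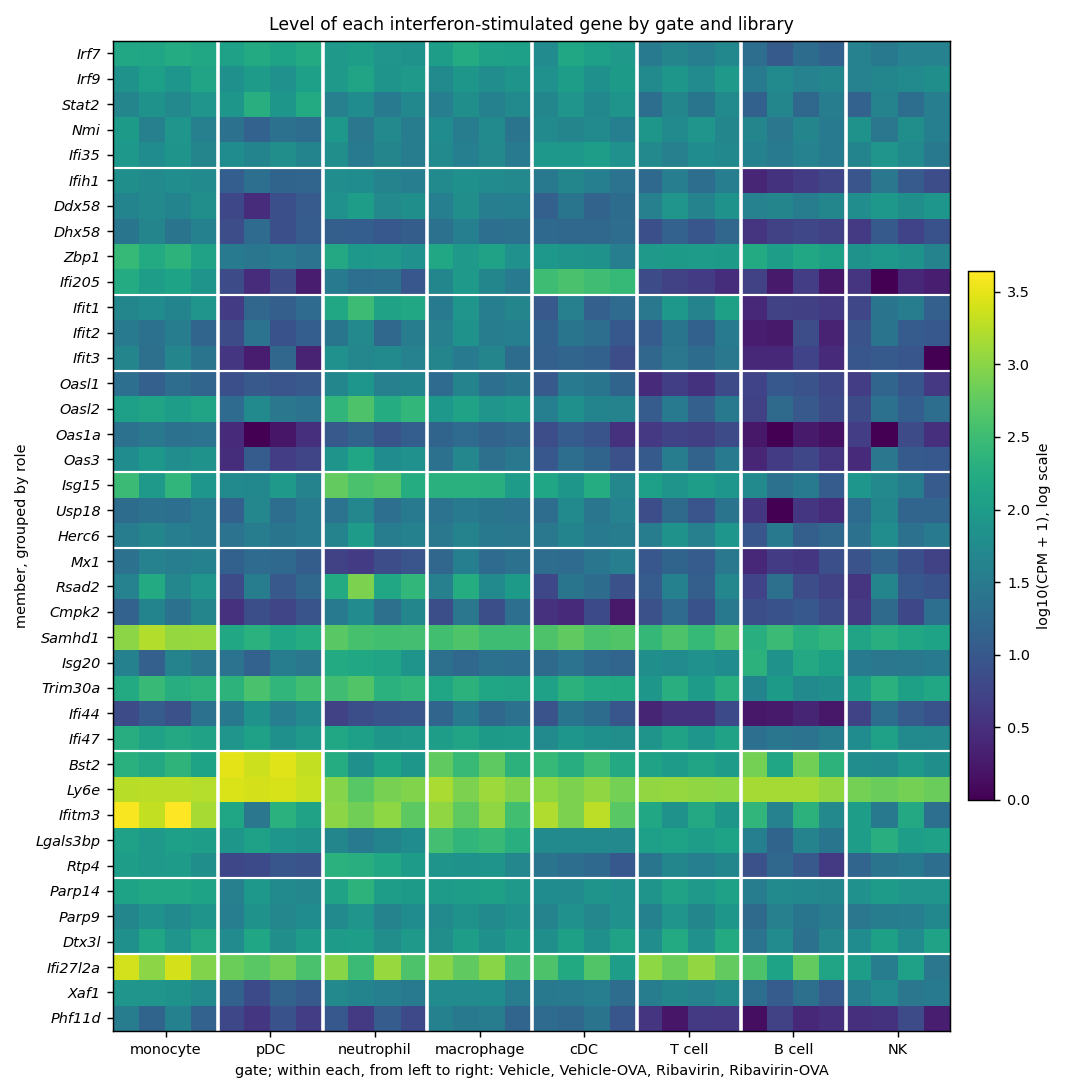
Level of each of the 39 members (vertical axis, grouped by role) in each gate and library (horizontal axis), coloured by log10 of CPM plus 1, a log scale. Bst2 in the pDC gate, Ifitm3 and Ifi27l2a in the monocyte gate and Ifi205 in the cDC gate are bright in all 4 libraries.

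To ask how members differed with the allergen, Vehicle-OVA was set over Vehicle and Ribavirin-OVA over Ribavirin, pairs that share no library. A member was measured in a gate with at least 20 UMIs over the pair, and counted as higher or lower past 2-fold. Since low members pass this limit mainly where they are high, counts refer to measured members. In Vehicle-OVA over Vehicle, 290 of the member and gate combinations were measured (22 were not), 69 were higher (23.8%, against 17.7% of all genes) and 29 lower (10%, against 10.1%). In Ribavirin-OVA over Ribavirin, 302 were measured, 24 were higher (7.95%, against 16.8%) and 47 lower (15.6%, against 4.96%). Counting intervals excluded 1 for 67 of the 69, 25 of the 29, 24 of the 24 and 43 of the 47. In most gates the median ratio of all genes was itself above 1 (log2 medians of 0.26 to 0.65 in Vehicle-OVA over Vehicle, except -0.25 in the neutrophil gate, and 0.24 to 0.54 in Ribavirin-OVA over Ribavirin). Relative to that median, 47 combinations were higher in the first pair (16.2%, against 9.76% of all genes on the same scale) and 49 lower (16.9%, against 14%). In the second pair 8 were then higher (2.65%, against 7.35%) and 82 lower (27.2%, against 9.91%).

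The gates of Vehicle-OVA over Vehicle differed. In the T cell gate 14 of 39 members were higher (18% of all genes were) and 2 lower (8.32%), led by Rsad2 (3.65-fold), Oas3 (3.38-fold) and Ifit1 (3.12-fold), with Phf11d (0.264) and Ifitm3 (0.455) lower. In the NK gate 10 of 31 were higher (14.2%) and 3 lower (8.66%), with Rsad2 at 16.2-fold from 6 against 18 UMIs (interval 6.17 to 49.9) and Ifitm3 at 0.277. The neutrophil gene S100a8 had 1310 CPM in the NK gate of Vehicle and 299 CPM in that of Vehicle-OVA. Its part in the NK ratios was not tested. In the pDC gate 13 of 37 were higher (12.7%) and 4 lower (7.65%), led by Rsad2 (5.93-fold), Oas3 (5.15-fold) and Ifit1 (4.43-fold), with Ifitm3 lowest at 0.195. These lymphoid and pDC gates shared Rsad2 and Ifit1 among their 3 largest ratios.

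In the cDC gate 8 of 38 members were higher (17.3%) and 1, Ifi27l2a at 0.391, was lower (7.3%), and the largest ratios were Rsad2 (4.77-fold), Ifit1 (3.92-fold) and Oasl1 (3.44-fold). In the B cell gate 9 of 28 were higher, under the 35.8% of all genes, and 8 lower (7.99%), with Rsad2 (4.75-fold), Oasl2 (4-fold) and Stat2 (3.73-fold) at the top and Ifitm3 (0.161) and Bst2 (0.177) at the bottom. Plasma cell markers of the B cell gate stood at 85201 CPM without OVA and 8238 CPM with it, and their part in this result was not tested.

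The 3 remaining gates are myeloid. In the monocyte gate 3 of 39 members were higher (15.5%) and 6 lower (9.52%), with Rsad2 (4.16-fold), Cmpk2 (3.31-fold) and Dtx3l (2.12-fold) higher and Isg15 (0.296), Isg20 (0.311) and Nmi (0.402) lowest. This gate held 88 cells in Vehicle-OVA, and the uneven spread of induced members over them is given below. The neutrophil gate had 5 of 39 higher (13.5%) and 5 lower (19.5%), with Rsad2 (5.11-fold), Herc6 (2.46-fold) and Ifit1 (2.17-fold) at the top and Ifi27l2a (0.302), Nmi (0.311) and Phf11d (0.357) at the bottom. In the macrophage gate 7 of 39 were higher (16.6%) and 0 lower (7.66%), led by Rsad2 (4.64-fold), Cmpk2 (4.18-fold) and Ifit1 (2.62-fold).

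Under ribavirin the T cell gate was the one with many higher members. There 13 of 39 were higher (13.2% of all genes were) and 0 lower (6.79%), led by Rsad2 (4.11-fold), Cmpk2 (3.98-fold) and Usp18 (2.97-fold). In the NK gate 2 of 35, Cmpk2 (3.94-fold) and Dtx3l (2.2-fold), were higher (9.8%) and 6 lower (6.34%). Ifit3 in that gate had 21 UMIs in Ribavirin and 0 in Ribavirin-OVA, at least 2.73-fold lower when 3 UMIs are taken for the 0. Ifitm3 (0.129) and Ifi27l2a (0.221) followed.

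The pDC and cDC gates held 0 higher members under ribavirin. In the pDC gate 0 of 38 were higher (16.5%) and 4 lower (4.33%), with Ifit3 (0.0894 from 3 against 66 UMIs, 0.018 to 0.273), Ifi205 (0.146, 0.0168 to 0.58) and Isg15 (0.451) lowest. In the cDC gate 0 of 39 were higher (15.2%) and 13 lower (5.43%), with Cmpk2 (0.136 from 1 against 25 UMIs, 0.0033 to 0.828), Ifi27l2a (0.239) and Ifitm3 (0.265) lowest.

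In the B cell gate 3 of 34 members were higher (20.4%) and 8 lower (5.04%), with Mx1 (2.45-fold), Dtx3l (2.14-fold) and Stat2 (2.09-fold) higher and Ifit2 (0.19), Ifi27l2a (0.23) and Ifitm3 (0.233) lowest. In the monocyte gate 3 of 39 were higher (17.4%) and 6 lower (4.79%), with Ifi44 (3.19-fold), Cmpk2 (2.06-fold) and Dtx3l (2.02-fold) higher and Isg15 (0.328), Ifitm3 (0.332) and Phf11d (0.333) lowest. In the neutrophil gate 2 of 39, Cmpk2 (2.15-fold) and Ifit2 (2.12-fold), were higher (19.7%) and 4 lower (3.01%), with Ifi27l2a (0.35), Isg15 (0.389) and Ifi205 (0.402) lowest. In the macrophage gate 1 of 39, Cmpk2 (3.16-fold), was higher (20%) and 6 lower (4.63%), with Ifitm3 (0.323), Ifi27l2a (0.36) and Bst2 (0.396) lowest. The lowest members in these gates were thus mostly membrane proteins, Isg15 and Ifi27l2a.

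**Figure D3:**
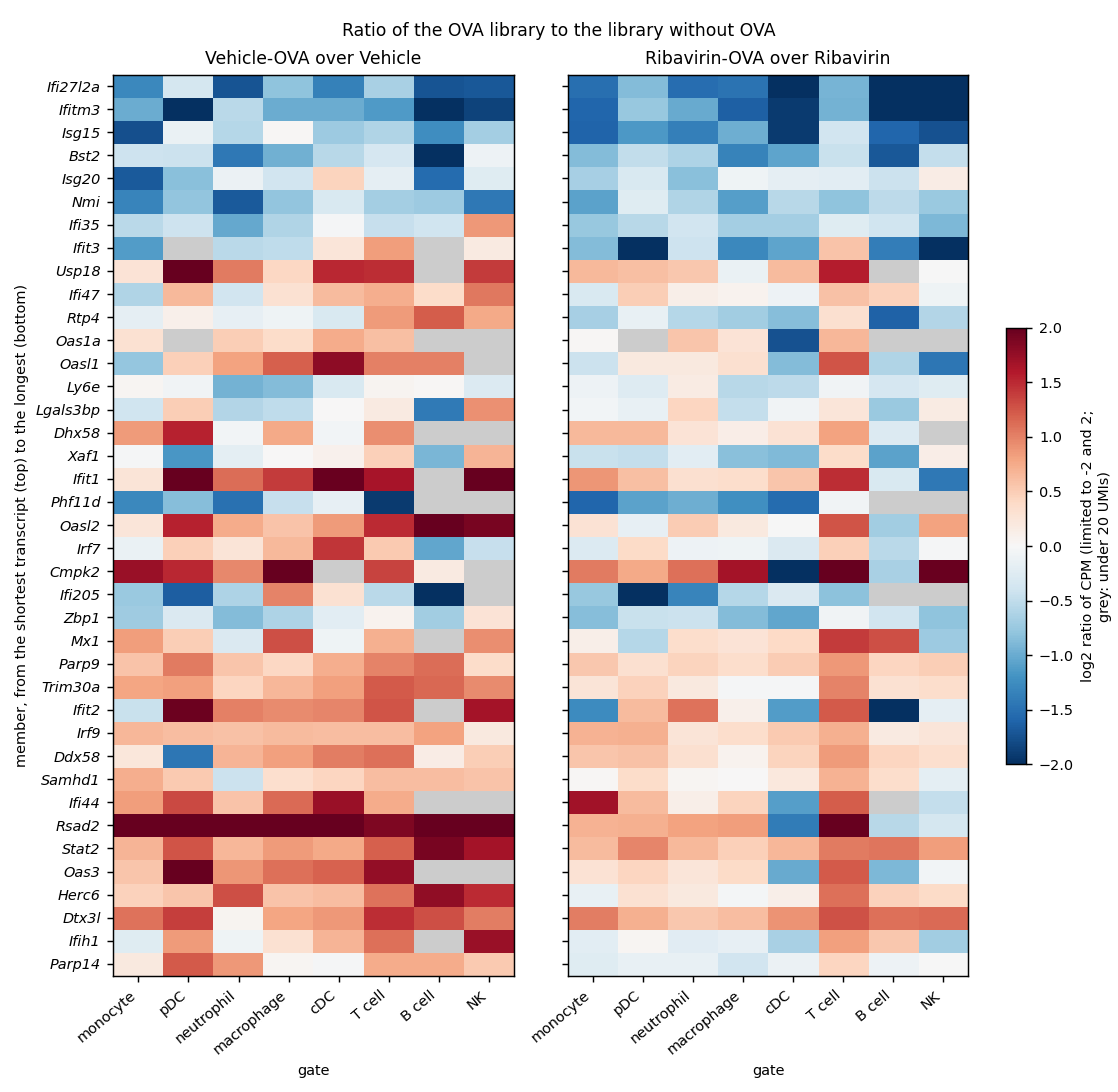
Log2 ratio of CPM with OVA over without OVA, limited to -2 and 2, for each member (vertical axis, shortest transcript at the top) and gate (horizontal axis), under vehicle on the left and ribavirin on the right, with grey for under 20 UMIs. Rsad2 is higher in all 8 gates on the left, the T cell column is mostly red on both sides, and Ifi27l2a, Ifitm3, Bst2 and Nmi are blue throughout.

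Rsad2 had the largest ratio of the measured members in each of the 8 gates under vehicle. In the lower direction it was exceeded in size by Phf11d in the T cell gate and by Ifitm3, Bst2 and Ifi205 in the B cell gate. From Vehicle to Vehicle-OVA it stood at 165 and 846 CPM in the neutrophil gate, 38.1 and 177 in the macrophage gate, 39.6 and 165 in the monocyte gate, 10.5 and 38.2 in the T cell gate, 5.69 and 33.7 in the pDC gate, 5.21 and 24.8 in the cDC gate, 4.43 and 21.1 in the B cell gate, and 2.69 and 43.7 in the NK gate. The ratio was past 2-fold in all 8 gates. Neutrophil RNA in the other gates is given below, and its part in these ratios was not tested. In the monocyte gate of Vehicle-OVA a few cells carried much of the UMIs of induced members, as also given below. From Ribavirin to Ribavirin-OVA it stood at 149 and 258 CPM in the neutrophil gate, 52.8 and 94.7 in the macrophage gate, 47.8 and 77.5 in the monocyte gate, 11.4 and 47 in the T cell gate, and 9.39 and 15.4 in the pDC gate. In the cDC gate it was 18.1 and 6.9 CPM, in the B cell gate 6.29 and 4.3, and in the NK gate 9.18 and 7.16. Under ribavirin it was therefore past 2-fold only in the T cell gate, and above 1 in 5 of 8 gates.

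A few further members give the range of patterns with OVA. Ifit1 in the T cell gate had 27.8, 86.7, 42.1 and 117 CPM, so both OVA libraries stood above both others. Isg15, from the same pathway, went the other way in the monocyte gate with 305, 90.1, 250 and 82 CPM, while in the macrophage gate it had 203, 207, 196 and 98.9 CPM and only Ribavirin-OVA stood apart. Ifi27l2a, an interferon-induced gene of unclear role, had 2478, 1010, 2558 and 904 CPM in the monocyte gate. Ifi205 in the macrophage gate had 46.6, 93, 46.4 and 31.3 CPM, above its level without OVA under vehicle and below it under ribavirin.

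By role, the direction alone was counted, beside 61.6% of all genes that lay above 1 under vehicle and 71.2% under ribavirin. Over all roles, 184 of 290 combinations of members lay above 1 under vehicle (63.4%) and 140 of 302 under ribavirin (46.4%). The OAS group was above 1 in 25 of 26 measured combinations under vehicle and in 18 of 29 under ribavirin. The PARP and DTX3L group, which carries Parp9 and its partner Dtx3l, was above 1 in 23 of 24 and in 17 of 24. The membrane and secreted group was above 1 in 11 of 40 under vehicle and in 5 of 40 under ribavirin. The IFIT group was above 1 in 16 of 20 under vehicle and in 11 of 24 under ribavirin.

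Transcript length went with these ratios. Across the members the Spearman correlation of the longest annotated transcript with the log2 ratio was 0.37 to 0.68 over the gates of both pairs, and across all genes it was 0.28 to 0.45. Genes of 1 library share its depth and preparation, so these correlations are descriptions. In Ribavirin over Vehicle the values across all genes were 0.07 to 0.20, and in Ribavirin-OVA over Vehicle-OVA they were -0.22 to 0.08. Ribosomal protein genes, whose transcripts are short, took a smaller share of UMIs with OVA in every gate, for example 26.2% and 14.2% in the T cell gate of Vehicle and Vehicle-OVA and 24% and 13.4% in Ribavirin and Ribavirin-OVA.

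The 5 members below 1 in every measured gate of both pairs were Nmi, Bst2, Ifitm3, Ifi27l2a and Phf11d, with a median transcript of 792 bases, against a median of 3123 bases over all members. They are 12.8% of the members, and 6.27% of the 10024 genes measured in at least 10 gates of the pairs met the same condition. The 4 above 1 in every measured gate were Irf9, Stat2, Parp9 and Dtx3l, with a median of 4133 bases, and are 10.3% of the members against 13.2% of those genes. Rsad2 has 4189 bases, Isg15 756, Ifitm3 678 and Ifi27l2a 463. Relative to genes of like length in the same gate, 46 combinations were past 2-fold higher in Vehicle-OVA over Vehicle (15.9%, against 9.13% of all genes on that scale) and 25 lower (8.62%, against 10.3%). In Ribavirin-OVA over Ribavirin 8 were higher (2.65%, against 7.33%) and 61 lower (20.2%, against 6.97%). On that scale Ifitm3 in Vehicle-OVA over Vehicle had a log2 ratio of 0.58 in the neutrophil gate (-0.54 unscaled) and negative ones elsewhere. Ifi27l2a likewise had 0.19 in the pDC gate (-0.35) and Nmi 0.15 in the cDC gate (-0.31). Bst2 was positive in the T cell, NK, pDC and monocyte gates and negative in the rest, and Phf11d was negative in every measured gate. Beyond these values, the part of transcript length in single members was not tested.

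**Figure D4:**
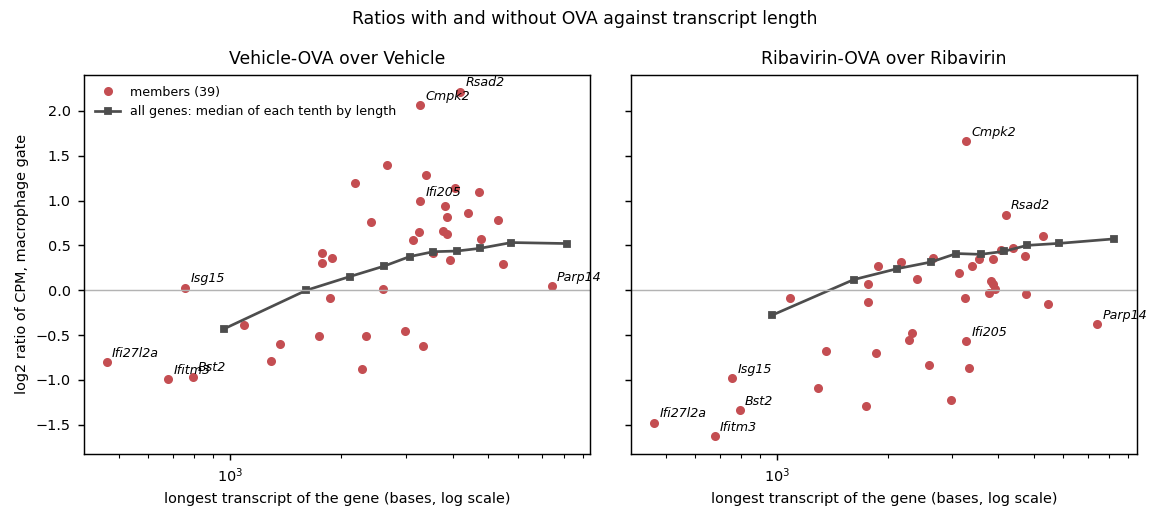
Log2 ratio of CPM in the macrophage gate (vertical axis) against the longest transcript in bases (horizontal log axis), with members as red points and the median of all genes in each of 10 bins of length as a grey line, under vehicle on the left and ribavirin on the right. Both the line and the points lie lower for short transcripts such as Ifi27l2a and Ifitm3, and Rsad2 stands above the line.

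As a measure of neutrophil RNA in the other gates, S100a8, an abundant neutrophil gene that was no gate marker, was set beside 4 members. Its CPM in the other gates was 0.361% to 1.85% of that in the neutrophil gate of the same library, except 6.49% in the NK gate of Vehicle and 3.97% in the B cell gate of Ribavirin. Rsad2 in the macrophage gate of Vehicle-OVA was at 20.9% of the neutrophil gate where S100a8 was at 1.7%, and in the monocyte gate it was at 19.5% where S100a8 was at 1.85%. In that monocyte gate the UMIs of induced members lay unevenly over the cells, as given below. In the NK gate of Vehicle, Rsad2 at 1.63% and Ifit1 at 3.42% lay below S100a8. In the B cell gate of Vehicle-OVA, Ifit1 at 1.29% lay below S100a8 at 1.43%, and Rsad2 was at 2.49%. In the B cell gate of Ribavirin, Ifit1 at 3.13% lay below S100a8 at 3.97%, and Rsad2 was at 4.23%. The share of S100a8 was higher in Vehicle-OVA than in Vehicle in every gate other than the neutrophil and NK gates. It was 0.615% and 1.48% in the T cell gate of Vehicle and Vehicle-OVA, and 0.44% and 1.17% in the pDC gate. In the cDC gate it was 0.361% and 1.08%, and in the B cell gate 0.588% and 1.43%. Rsad2 of Vehicle-OVA was at 4.52%, 3.98%, 2.94% and 2.49% in these gates. The part of neutrophil RNA in the levels and ratios of the other gates was not tested.

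To compare the drug, Ribavirin was set over Vehicle and Ribavirin-OVA over Vehicle-OVA. These pairs reuse the libraries of the OVA pairs, so they are not further evidence on them. Without OVA, 305 combinations were measured, 21 were higher (6.89%, against 7.75% of all genes) and 1 lower (0.328%, against 1.22%). The higher ones lay in 4 gates, the NK gate with 7 of 37 (5.47% of all genes), the cDC gate with 5 of 39 (3.52%), the B cell gate with 6 of 35 (5.26%) and the pDC gate with 3 of 38 (6.54%), and counting intervals excluded 1 for 17 of the 21. The T cell, monocyte, neutrophil and macrophage gates held 0 members past 2-fold in either direction.

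Several of the higher ratios without OVA rested on few UMIs. In the NK gate Ifit1 was 6.71-fold higher (11 against 83 UMIs, 3.56 to 13.9), Oas3 5.33-fold (4 against 24 UMIs) and Rsad2 3.41-fold (6 against 23 UMIs), while Isg15 was the 1 lower member at 0.42 (0.321 to 0.546). In the pDC gate Ifit3 was 5.34-fold higher (3.13 to 9.55) and Ifit1 3.44-fold (2.05 to 5.95). In the cDC gate Rsad2 was 3.48-fold higher (2.17 to 5.8), Oasl1 2.71-fold (1.88 to 3.97) and Cmpk2 2.5-fold (1.16 to 5.83). In the B cell gate Ifit2 was 6.8-fold higher (5 against 23 UMIs, 2.53 to 22.9). S100a8 in that gate had 119 CPM in Vehicle and 716 CPM in Ribavirin, and the part of neutrophil RNA in its 6 higher members was not tested. In the NK gate S100a8 had 1310 CPM in Vehicle and 207 CPM in Ribavirin. The part of neutrophil RNA in the NK ratios, that of Isg15 among them, was not tested.

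With OVA, 286 combinations were measured, 9 were higher (3.15%, against 14.8%) and 36 lower (12.6%, against 3.51%), and intervals excluded 1 for 34 of the 36. Lower members were 9 of 36 in the cDC gate (3.56% of all genes), 8 of 29 in the NK gate (2.59%), 7 of 39 in the neutrophil gate (4.2%), 4 of 35 in the pDC gate (1.78%) and 4 of 30 in the B cell gate (10.8%). In the neutrophil gate Rsad2 was lowest at 0.305 (0.296 to 0.315), followed by Herc6, the mouse ligase for ISG15, at 0.37 and Parp14 at 0.427. The median log2 ratio of members in that gate was -0.44 where that of all genes was 0.86. With means of single-cell CPM that median of members differed, as given at the end. Neutrophil markers of the gate summed to 36889 CPM in Vehicle-OVA and 25706 CPM in Ribavirin-OVA. Epithelial markers there summed to 283.2 and 806.8 CPM, and mast cell and basophil markers to 63 and 160.4 CPM. The part of other cells' RNA in these ratios was not tested. In the NK gate Rsad2 was at 0.164 (7 against 18 UMIs, 0.0578 to 0.411) and Isg15 at 0.201, in the cDC gate Rsad2 at 0.278 and Ifi44 at 0.34, and in the B cell gate Rtp4 at 0.192 and Rsad2 at 0.204. In the macrophage gate Ifi205 (0.336) and Isg15 (0.478) were the 2 lower members. Higher members included Ifitm3 (4.63-fold) and Ddx58 (5.4-fold from 2 against 23 UMIs, 1.33 to 47.3) in the pDC gate and Mx1 (2.39-fold) in the neutrophil gate.

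Whether the RNA lay in many cells or few was read from 10 strongly induced members (Ifit1, Ifit2, Ifit3, Isg15, Rsad2, Mx1, Oasl1, Cmpk2, Usp18 and Ifi44), after each cell was thinned to 1000 UMIs and shallower cells were left out. In the neutrophil gate 14.5%, 19.5%, 15.9% and 11.7% of cells had 3 or more such UMIs, after 250, 585, 0 and 183 cells were left out, and the shares before thinning were 28.6%, 35.9%, 36.9% and 26.3%. The T cell gate had 1.41%, 3.15%, 1.91% and 4.87%, and 8.15%, 13.9%, 10.7% and 15.4% before thinning, so the OVA library of each pair was higher either way. The macrophage gate had 4.29%, 8.51%, 3.9% and 5.2%, but 32.8%, 23.6%, 31.8% and 21.7% before thinning, so its order with OVA differed before and after thinning. Intervals of each OVA library lay above those of its library without OVA in the T cell gate (2.21% to 4.33% over 1.13% to 1.74%, and 3.89% to 6.02% over 1.5% to 2.39%). For neutrophil-gate cells this held under vehicle and was turned around under ribavirin (10.5% to 13% against 15.1% to 16.7%). In the monocyte gate of Vehicle-OVA 2 of 85 cells had 3 or more such UMIs (2.35%), against 4.41% in Vehicle. The variance over cells was 28.1 times the mean there and 3.05 times in Vehicle, so a few cells carried much of these UMIs.

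In 4 gates of OVA libraries 0 cells had 3 or more such UMIs after thinning, and the limits given here take 3 cells for the 0. These were 0 of 229 in the B cell gate of Vehicle-OVA, which allows a share of up to 1.31%, 0 of 266 in the B cell gate of Ribavirin-OVA (1.13%), 0 of 135 in the NK gate of Ribavirin-OVA (2.22%) and 0 of 89 in the cDC gate of Ribavirin-OVA (3.37%). Before thinning these shares were 1.71%, 5.24%, 5.88% and 30.5%, and the cDC gate of the other libraries had 24.2%, 28.6% and 26.3%. At 2000 UMIs the cDC gate of Ribavirin-OVA had 3.53% (0.734% to 9.97%), so its 0 holds for the lower depth only. At 1000 UMIs per cell, cells with Rsad2 also held more of the other members. Neutrophil-gate cells with a UMI of Rsad2 held 6.58, 3.34, 4.78 and 4.57 UMIs of the other 9 members, against 0.697, 0.385, 0.742 and 0.334 in cells without one. The ratio was 15.8 (13.4 to 18.5) in the T cell gate of Ribavirin-OVA, where 60 of the cells had a UMI of Rsad2.

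**Figure D5:**
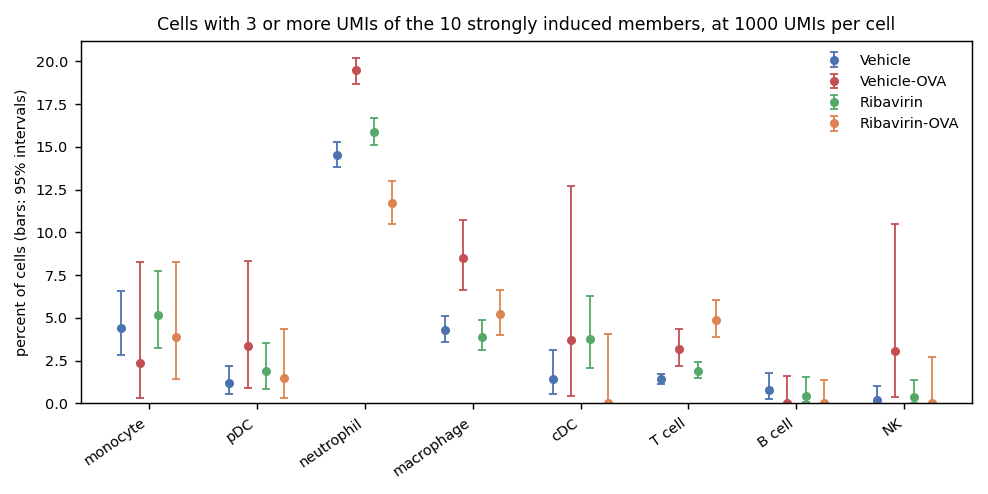
Percent of cells with 3 or more UMIs of the 10 strongly induced members at 1000 UMIs per cell (vertical axis), by gate (horizontal axis) and library (colour), with bars for 95% Clopper-Pearson intervals. The neutrophil gate is highest in every library (11.7% to 19.5%), and the T cell gate is higher in both OVA libraries.

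The rest of the pathway was read from 24 genes for interferons, receptors and signalling and 13 genes known mainly for interferon-gamma. Transcripts of the type I interferon genes Ifna4 and Ifnb1 were near the limit of detection. Ifna4 had 0 UMIs in every gate, and Ifnb1 reached at most 5.62 CPM, in the pDC gate of Vehicle-OVA. Interferon-gamma (Ifng) lay in T cell and NK gates, at 153, 161, 154 and 171 CPM and at 214, 121, 240 and 219.9 CPM. The receptor chains Ifnar1 and Ifnar2 were highest in the pDC gate, at 268, 433, 250.3 and 260 CPM and at 265, 418, 246 and 332 CPM.

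Of the 24 genes, 20 were measured in the T cell gate of Vehicle-OVA over Vehicle, where 1 was higher (Mavs, the adaptor of the RNA sensors, against 18% of all genes) and 1 lower (Tlr7, against 8.32%). In the macrophage gate 21 were measured, of which 1 was higher (Myd88, against 16.6%) and 2 lower (Ifng and Tlr9, against 7.66%). The B cell gate differed, with 17 measured, of which 9 were higher (against 35.8%) and 1 lower (Ifnar2, against 7.99%). In Ribavirin-OVA over Ribavirin 0 of 19 passed 2-fold in the T cell gate (13.2% of all genes were higher and 6.79% lower) and 0 of 18 in the monocyte gate (17.4% and 4.79%). All 13 interferon-gamma genes were measured in the T cell and myeloid gates of Vehicle-OVA over Vehicle. In the monocyte gate 0 were higher (15.5% of all genes) and 6 lower (9.52%), in the neutrophil gate 0 higher (13.5%) and 6 lower (19.5%), and in the macrophage gate 0 higher (16.6%) and 3 lower (7.66%). In the T cell gate 2, Gbp4 and Irgm2, were higher (18%) and 2, Ciita and Cxcl9, lower (8.32%). Of 9 measured in the NK gate, 4 were higher (14.2%) and 1, Cxcl9, lower (8.66%). Of 11 measured in the B cell gate of Ribavirin-OVA over Ribavirin, 4 were higher (20.4%) and 1, Cxcl9, lower (5.04%). Cxcl9, a chemokine gene induced by interferon-gamma, had 644, 182, 274 and 27.8 CPM in the monocyte gate and 623, 93.5, 373 and 104 CPM in the macrophage gate, so both OVA libraries stood below both others. Tgtp1 and Tgtp2 are near-identical copies, and their counts are uncertain.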

How the data were processed

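CD45+ cells of nasal mucosa were profiled in 4 libraries, 1 for each group. The authors deposited UMI counts per gene and cell, with no normalization, and the submitters' processing notes name Cell Ranger 5.0.0 and mm10. Per library 91742940 to 171873110 UMIs were counted over 10311 to 28277 cells, so low members of small gates rest on few UMIs. The labels name magnetic sorting and the series text fluorescence-activated sorting.

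Cells were dropped below 200 genes or 500 UMIs, or with 10% or more of UMIs from mitochondrial genes. A cell entered a gate with at least 2 of 6 markers, more than for any other gate. Cells with 3 or more markers of a second class (8.73% to 10.6% of cells) were left out as mixed, and no doublet caller was run. From the deposited counts, UMIs were summed per gate and library and scaled to CPM, with exact Poisson intervals for levels, exact conditional binomial intervals for ratios and Clopper-Pearson intervals for shares. The ratios were tested on data drawn with known folds. These draws were Poisson counts per gene, so they cannot show how the intervals hold where UMIs lie in few cells. Transcript lengths came from GENCODE M21, which matched 98.7% of the 27998 genes.

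Named were up to 3 of the most abundant members per gate and, per gate and pair, up to 3 members with the largest and the smallest ratios past 2-fold. Further values for a few members and genes of the pathway were chosen after they were seen. The members and lists were chosen with earlier results of these data known. Python 3.11.15, numpy 2.4.6, scipy 1.17.1, pandas 2.3.3 and matplotlib 3.10.9 were used. Alternatives for cell limits, gates, scaling, filter and thinning were run, and that for transcript length was chosen after seeing the data.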

Additional observations from a re-analysis of the deposited data

Results flagged for a closer look

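For 17 of 289 combinations of member and gate measured in both pairs (14 genes, 5.88%, against 6.01% of 84030 combinations of all genes) the ratio with OVA over without OVA lay on opposite sides of 1 under vehicle and under ribavirin, with each counting interval clear of 1. The difference between these ratios was not tested, since each is from 1 library over 1 library. The share of all genes was not counted for single gates, so the counts by gate describe these members only. In the cDC gate, 6 members were above 1 under vehicle and below it under ribavirin. They were the RNA sensor Ifih1 (1.6 and 0.635), the AIM2-like receptor Ifi205 (1.23 and 0.815), Ifit2 (1.96 and 0.462), Oasl1 (3.44 and 0.549), Rsad2 (4.77 and 0.381) and Ifi44 (3.32 and 0.466). All 6 were also higher in Ribavirin than in Vehicle in this gate, at 3.48-fold for Rsad2, 2.71 for Oasl1 and 2.42 for Ifi44. The others were Ifit2 (1.57), Ifih1 (1.26) and Ifi205 (1.04). In the NK gate the same order held for Ifi35 (1.82 and 0.535) and Ifit1 (4.92 and 0.37), in the B cell gate for Rtp4 (2.31 and 0.325), in the T cell gate for Ly6e (1.04 and 0.951), and in the macrophage gate for Ifih1 (1.23 and 0.897) and Ifi205 (1.99 and 0.674). The neutrophil gate held both orders. There Irf7 (1.2 and 0.931) and Parp14 (1.82 and 0.9) were above 1 under vehicle, and Ifi47 (0.768 and 1.09), Ly6e (0.52 and 1.12) and Lgals3bp (0.67 and 1.35) were above 1 under ribavirin.

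Members were also present in cells outside the 8 gates, which no comparison used. Mixed cells had 6826, 6073, 6727 and 4760 CPM of the summed members, in the library order used above. Cells with no gate had 6443, 5799, 5934 and 3543 CPM, and they held plasma cell markers at 5581 to 29159 CPM.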

How the results depend on the processing

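Each group is 1 library of unstated mice, so the values describe these libraries. Depth limits the NK, cDC, monocyte and pDC gates of Vehicle-OVA (56 to 125 cells). The neutrophil gate made up 67% of that library, and OVA cannot be told apart from any other difference between libraries. No paired analysis was possible because each group is 1 library. The monocyte gate kept the highest sum in 4 libraries under each alternative for gates and cell limits. Of 384 medians recomputed under 12 settings, 357 stayed within the spread allowed, 24 moved and 3 were counted as reversed. In the neutrophil gate the median log2 ratio with OVA under ribavirin changed from 0.16 to -0.38 relative to the median of all genes and to -0.45 relative to genes of like length, and that for ribavirin with OVA from -0.44 to 0.0245 with means of single-cell CPM. A change of sign alone was not counted as reversed. Relative to genes of like length, medians with OVA under vehicle changed from -0.06 to 0.54 in the neutrophil gate and from 0.16 to -0.37 in the B cell gate. Those of the monocyte gate under vehicle (0.04 to -0.12) and the pDC gate under ribavirin (0.12 to -0.13) also changed sign. Counts of combinations past 2-fold that moved by over 1.5 times were as follows. For ribavirin without OVA, the 1 lower became 3 with at least 3 markers, 3 with a lead of 2 markers and 0 with means of single-cell CPM, and the 21 higher became 9 at a limit of 50 UMIs. For ribavirin with OVA, the 9 higher became 2 with mixed cells kept, 5 with means of single-cell CPM and 4 at 50 UMIs, and the 36 lower became 20 at 50 UMIs, 59 relative to the median and 55 relative to like length. For OVA under vehicle, the 29 lower became 49 relative to the median. For OVA under ribavirin, the 24 higher became 8 relative to the median and 8 relative to like length, and the 47 lower became 82 relative to the median. Thinning to 2000 UMIs gave 20.2%, 29%, 26% and 16.5% of neutrophil-gate cells in the 4 libraries. The cause of these changes was not tested.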
